A study of Mus musculus with 8 samples.

Results

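Slc15a2, Slc15a3 and Slc15a4 encode peptide transporters of the solute carrier 15 family, and their RNA was followed through 8 RNA sequencing libraries of mouse myocardium. The 3 genes were taken by gene symbol from a table of 33249 genes, and all 3 passed a minimum mean level, applied to every gene, that left 14028 genes for testing. Slc15a2 was selected on its difference in level between the sham libraries labelled CKO and fl/fl. Its values in comparisons that use sham libraries are therefore given as a description, with no test. The same holds for the order of its levels. Its difference between the 2 infarcted groups compares no sham library and was tested, as were Slc15a3 and Slc15a4. The scaling and the spread in these tests came from a fit of all 8 libraries, sham libraries included. All 3 genes were chosen with earlier results of these data known.

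The libraries fell into 4 groups of 2 libraries each, labelled fl/fl-Sham, fl/fl-MI, CKO-Sham and CKO-MI. All groups carried floxed alleles of Piezo1, which encodes a mechanically gated cation channel, and the labels give the genotypes as WT for fl/fl and Piezo1 knockout for CKO. Per the study's methods, CKO mice also carried a Cre recombinase transgene driven by the Myh6 promoter, which is active in cardiomyocytes, and fused to estrogen receptor sequence so that tamoxifen induces it. The fl/fl mice were littermates without that transgene, and the methods do not say whether they also received tamoxifen. For MI (myocardial infarction) the left anterior descending coronary artery was tied off permanently and the myocardium taken at day 42, and sham hearts had the operation without the tie. Per the methods, tamoxifen was given to juvenile CKO mice and the surgery was done in young adults. The labels give no ages, and they do not say which region of the ventricle was taken or whether replicates were separate animals, so p-values measure only the spread between these samples.

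The solute carrier 15 proteins couple the inward movement of small peptides to the movement of protons down their gradient. Slc15a2 encodes PEPT2, a high-affinity carrier of di- and tripeptides in the plasma membrane that is best known from kidney, brain and lung, where it also carries peptide-like drugs and muramyl peptides. Slc15a3 and Slc15a4 encode PHT2 and PHT1, carriers of histidine and peptides in the membranes of lysosomes and endosomes, mainly studied in macrophages and dendritic cells, where SLC15A4 acts in signalling by endosomal Toll-like receptors and by NOD receptors. The family's best known member, Slc15a1, encodes the intestinal carrier PEPT1, and Slc15a5 was not analysed here.

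In the annotation of the deposited tables, whose coordinates for these genes are those of GENCODE M21 on GRCm38, Slc15a2 (ENSMUSG00000022899) spans chr16:36750177-36784962 on the minus strand. Slc15a3 (ENSMUSG00000024737) spans chr19:10839727-10859362 on the plus strand, and Slc15a4 (ENSMUSG00000029416) spans chr5:127595664-127632897 on the minus strand. A window before 1 annotated start of Slc15a2 and of Slc15a4 is shown because the 2 genes had different patterns of level over the libraries. Each is the 250 bases before the start of transcription in RefSeq on GRCm38.p6, read 5′ to 3′ on the gene's strand, with matches to a GC box (GGGCGG, or CCGCCC on the other strand) and to the core of a cyclic AMP response element (TGACG) in capitals. The Slc15a2 window lies at chr16:36784963-36785212, directly upstream of the gene span above. The Slc15a4 window lies at chr5:127617393-127617642, inside that gene's span, since Slc15a4-203 and Slc15a4-206 reach further 5′ (to 127632880 and 127632897), and it overlaps the first bases of Slc15a4-201 and Slc15a4-205, which start at 127617416 and 127617418. Slc15a3 has no entry in the promoter table.
Slc15a2 promoter: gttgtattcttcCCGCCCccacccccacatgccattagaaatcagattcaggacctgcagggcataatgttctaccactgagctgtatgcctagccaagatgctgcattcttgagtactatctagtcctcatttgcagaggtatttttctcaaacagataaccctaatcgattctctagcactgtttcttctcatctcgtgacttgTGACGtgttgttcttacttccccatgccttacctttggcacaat
Slc15a4 promoter: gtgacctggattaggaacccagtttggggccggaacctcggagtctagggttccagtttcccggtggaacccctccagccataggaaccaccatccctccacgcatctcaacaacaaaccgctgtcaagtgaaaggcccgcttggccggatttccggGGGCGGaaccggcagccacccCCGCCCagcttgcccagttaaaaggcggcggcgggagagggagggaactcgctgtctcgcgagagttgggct

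The base composition of these windows differed widely. The Slc15a2 window held 45.2% G and C bases and 4 CpG dinucleotides, at percentile 24.5 of GC content among 32851 promoter windows of the same length, and the Slc15a4 window held 62.8% and 17 CpG dinucleotides, at percentile 78.3. The median window held 6 CpG dinucleotides. Slc15a2 had 1 GC box and Slc15a4 had 2, and 32.7% of all windows held at least 1. The TGACG match was in the Slc15a2 window alone, and 17.8% of all windows held one. Neither window held a TATA box (TATAAA, in 12.4% of windows), a CCAAT box (CCAAT, in 33.8%) or an E-box (CACGTG, in 6.02%). All motifs were searched on both strands.

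The deposited counts summed to between 73821747 and 88117573 per library. Low gene counts piled up at 4 (on average 1106.5 genes a library, against 469.1 at 3 and 325.5 at 5), so 4 counts were read as about 1 read pair, which gives 18455437 to 22029393 pairs per library. The share of counts on mitochondrially encoded genes was 43.1% to 46.4% in sham and 19.9% to 24.2% in MI libraries. Levels between libraries are given in CPM, counts scaled to the same effective library size (TMM) over the genes tested, and levels between genes in the authors' FPKM, which divide by gene length. Piezo1 was not lower in the libraries labelled CKO, at 72.2 and 82.0 CPM in fl/fl-Sham, 76.7 and 88.3 CPM in CKO-Sham, 53.5 and 64.8 CPM in fl/fl-MI, with 56.3 and 64.6 CPM in CKO-MI. These values cover the whole gene and all cells of the tissue, so they do not measure deletion of the floxed part in cardiomyocytes. Esr1, whose sequence is part of the transgene, was at 5.52 to 8.36 CPM in the 4 sham libraries and fl/fl-MI replicate 1, and at 331, 707 and 402 CPM in fl/fl-MI replicate 2, CKO-MI replicate 1 and CKO-MI replicate 2. This signal thus went against the labels in both libraries labelled CKO-Sham and in 1 library labelled fl/fl-MI. That library, fl/fl-MI replicate 2, also stood apart in atrial markers, with a summed 19857 CPM of 5 genes against 2547 to 4450 CPM in the other MI libraries and 135 to 594 CPM in sham. Groups below are named by their labels.

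Slc15a2 separated the libraries by their genotype label both in sham and in infarcted hearts. Its level was 45.9 and 34.3 CPM in the pair labelled fl/fl-Sham, 2.21 and 1.76 CPM in CKO-Sham, 5.97 and 7.58 CPM in fl/fl-MI, with 1.65 and 2.40 CPM in CKO-MI. All 4 libraries labelled CKO were below all 4 labelled fl/fl, and the fl/fl-Sham libraries were far above the other 6. Group means were 40.1 ± 8.18, 1.98 ± 0.316, 6.77 ± 1.14 and 2.03 ± 0.528 CPM in that order (SD, n = 2). In order of level, fl/fl-Sham stood first and fl/fl-MI next, and the 2 CKO groups, whose values interleaved, could not be ordered beyond their spread. In a bulk tissue library, fewer cells that express a gene and less of its RNA per cell cannot be told apart.

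**Figure D1:**
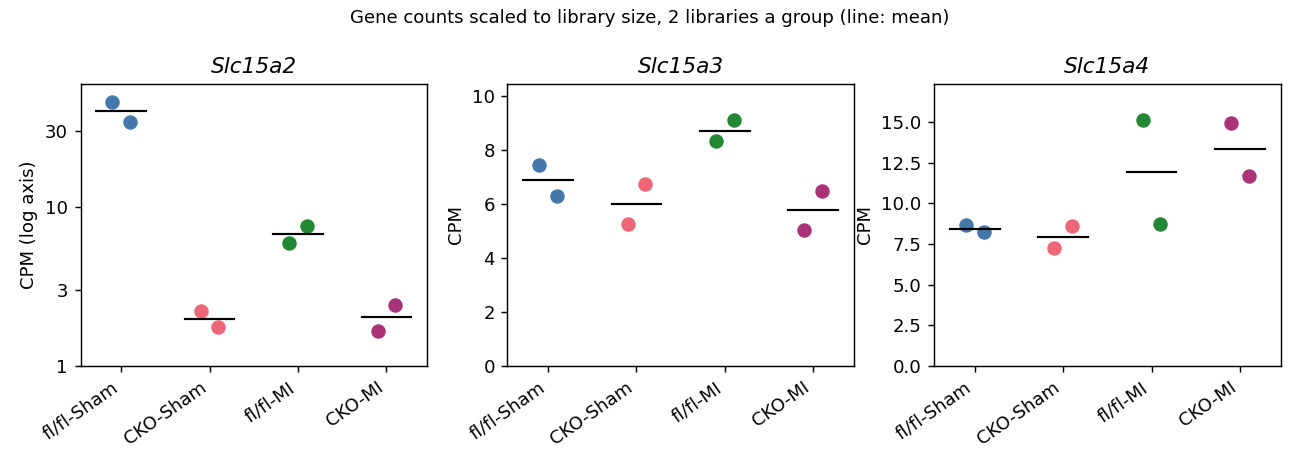
Level of Slc15a2, Slc15a3 and Slc15a4 in CPM (vertical axis, log scale for Slc15a2 and linear from 0 for the others) in the 4 groups, with 1 point a library and a line at the mean of 2 libraries. Slc15a2 ranges from 1.65 to 45.9 CPM with every library labelled CKO below every library labelled fl/fl, while Slc15a3 stays between 5.03 and 9.10 CPM and Slc15a4 between 7.25 and 15.1 CPM.

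Slc15a2 was detected in every library, including those labelled CKO. In the deposited counts Slc15a2 had 2691 and 2169 in fl/fl-Sham, 162 and 107 in CKO-Sham, 632 and 628 in fl/fl-MI and 140 and 233 in CKO-MI. The lowest library, CKO-Sham replicate 2, thus held about 27 pairs, with an exact Poisson 95% interval of 17.8 to 39.3 pairs that covers counting error only. The lower of the fl/fl-MI libraries held about 157 pairs (133 to 184), above the interval of the higher CKO-MI library, which held about 58 pairs (44.0 to 75.0).

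In infarcted hearts, Slc15a2 was 3.34-fold lower in the libraries labelled CKO-MI than in those labelled fl/fl-MI. The fitted difference was -1.74 ± 0.27 on the log2 scale (SE), and it did not pass edgeR's quasi-likelihood test after adjustment over all genes (unadjusted p = 0.000366, adjusted p = 0.454). In this comparison edgeR called 0 of 14028 genes, which is 0% of those tested, with 1166 genes at an unadjusted p under 0.05, and DESeq2 called 211 and limma on log2(FPKM + 1) called 0. Of the 14028 genes, 9 had a smaller p than Slc15a2 and 209 were further lower. DESeq2 gave -1.72 with an adjusted p of 2.6e-05. The 2 groups did not overlap, as was so, in the lower direction, for 15.5% of the genes tested. With 2 libraries against 2, an exact permutation test cannot go below p = 0.33.

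The infarct comparison moved with the libraries entered. With 1 fl/fl-MI library left out, the fit takes the spread of the remaining one from the other groups. Without fl/fl-MI replicate 1 the difference was -1.88 (edgeR adjusted p = 0.00893), and without fl/fl-MI replicate 2, the library high in Esr1 and atrial genes, it was -1.55 (edgeR adjusted p = 0.0931). The range over all single libraries left out was -1.997 to -1.484, so the direction held in each. Among the cell type markers, summed macrophage genes were at 1310 and 944 CPM in fl/fl-MI, with 513 and 892 CPM in CKO-MI. All 12 of the macrophage markers had fitted values lower in CKO-MI, with a median of -0.53 against -0.01 for all genes tested, and 0 passed the test. Summed markers of Schwann and satellite glia were at 15.2 and 28.4 CPM in fl/fl-MI, with 13.3 and 12.3 CPM in CKO-MI. In sham they were at 31.3 and 36.1 CPM in fl/fl and 44.2 and 38.2 CPM in CKO. All 6 tested of these 7 markers were fitted lower in CKO-MI, with a median of -1.10, and 0 passed the test. Without overlap 5 of these 6 were lower, beside 15.5% of all genes tested. Between the sham groups all 6 were fitted higher in CKO, with a median of 0.47. Summed markers of neurons and brain, another tissue of Slc15a2, were at 27.9 and 34.3 CPM in fl/fl-MI, with 17.1 and 20.3 CPM in CKO-MI, and at 29.3 and 19.7 CPM in fl/fl-Sham with 31.0 and 32.0 CPM in CKO-Sham. All 4 tested of these 5 markers had fitted values lower in CKO-MI, with a median of -0.81 against -0.01 for all genes, and 0 passed the test. Without overlap 3 of these 4 were lower, beside 15.5% of all genes tested. Between the sham groups all 4 were fitted higher in CKO, with a median of 0.45. Markers of kidney and lung epithelium, where Slc15a2 is best known, summed to at most 1.10 CPM in any library. The part of these cells in the Slc15a2 values was not tested.

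In sham hearts, the comparison that chose the gene, Slc15a2 was 20.2-fold lower in the libraries labelled CKO-Sham, or -4.33 ± 0.30 on the log2 scale (SE). It was the 1 gene called there among 14028 (0.00713%), from which nothing is read because this contrast selected it. Without overlap 23.8% of all genes were lower and 23.2% higher in CKO-Sham. In fl/fl hearts, Slc15a2 was 5.92-fold lower after MI than after sham surgery (-2.57 ± 0.28), and between CKO-MI and CKO-Sham the ratio of the means was 1.02 (0.03 on the log2 scale). These comparisons share libraries with the chosen contrast and are described only. Endothelial markers also fell in fl/fl hearts, with summed levels of 1498 and 1499 CPM in fl/fl-Sham against 457 and 655 CPM after MI. By edgeR 4 of 5 fell there, beside 8.45% of all genes tested. In CKO hearts, where the Slc15a2 ratio was 1.02, they went from 1611 and 1593 CPM to 656 and 566 CPM. There 5 of 5 fell, beside 11.9% of all genes. Mural cell markers were at 1483 and 1398 CPM against 571 and 383 CPM in fl/fl, and 3 of 5 fell. In CKO they were at 1386 and 1250 CPM against 778 and 731 CPM, and 2 of 5 fell. The part of these cells in the Slc15a2 values was not tested.

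**Figure D2:**
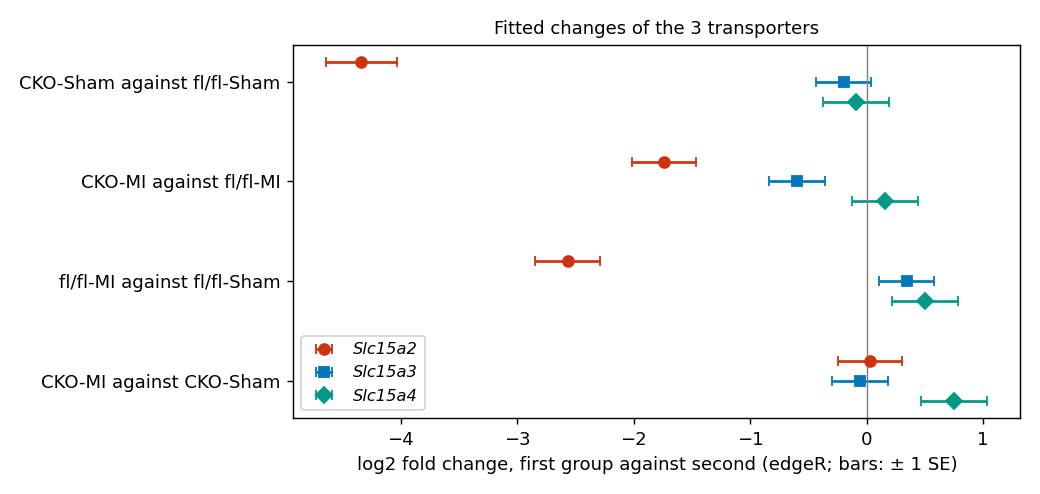
Fitted log2 fold changes (horizontal axis) of Slc15a2, Slc15a3 and Slc15a4 in 4 comparisons between groups (rows), with bars of 1 SE from the edgeR fit of all 8 libraries. Slc15a2 lies at -4.33, -1.74 and -2.57 in the first 3 comparisons and at 0.03 between CKO-MI and CKO-Sham, and the other 2 genes lie between -0.60 and 0.75.

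Over all 8 libraries, 64 of 14028 genes (0.456%) had every library labelled CKO below every library labelled fl/fl, and 44 genes (0.314%) had the reverse. Among these 64 genes Slc15a2 had the widest gap, with its lowest fl/fl library at 5.97 CPM and its highest CKO library at 2.40 CPM, or 2.43-fold with 0.1 CPM added to each value, as in all gaps given here. It was the 1 gene of the 64 with a gap over 2-fold. H2-Q6, H2-Q5 and H2-Q7, class I genes of the major histocompatibility complex, had gaps of 1.86-fold, 1.62-fold and 1.34-fold, and Gm14097, whose gap lay between 0.340 and 0.197 CPM, one of 1.48-fold that rests on few reads. In the other direction the widest gap was 1.49-fold, in Epn3, an epsin of clathrin-mediated endocytosis. These genes were singled out after their values were seen, and the sham side of the pattern is the one that chose Slc15a2.

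**Figure D3:**
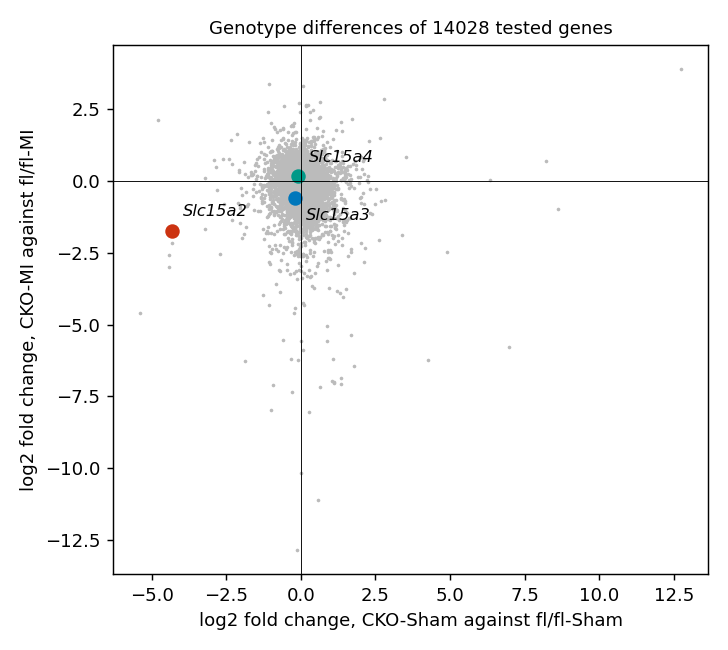
Fitted log2 fold changes between genotype labels in sham hearts (horizontal axis) and in infarcted hearts (vertical axis) for the 14028 genes tested, 1 point a gene, with the 3 transporters marked. Slc15a2 lies at -4.33 and -1.74, in the lower left, Slc15a3 at -0.20 and -0.60 and Slc15a4 at -0.09 and 0.16. On the vertical axis 1957 genes lie further from 0 than Slc15a3.

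The tested genes nearest to Slc15a2 on chromosome 16 are described by their differences between genotype labels. EdgeR called none of them, but of all 14028 genes it called 0 between the infarcted groups and 1, Slc15a2, between the sham groups. Of 21 other genes listed within 500 kb of its ends, 5 passed the minimum level: Cd86, a costimulatory ligand of antigen-presenting cells, Iqcb1, a ciliary protein, Golgb1, a Golgi tether, Hcls1, a cytoskeletal adaptor of blood cells, and Fbxo40, a muscle ubiquitin ligase subunit. Between CKO-MI and fl/fl-MI their log2 differences ran from -0.72 ± 0.30 (SE) for Cd86 (edgeR adjusted p = 0.587) to 0.78 ± 0.43 for Fbxo40 (edgeR adjusted p = 0.683). Between the sham groups they ran from -0.50 for Fbxo40 to 0.28 for Iqcb1, with an adjusted p of 1 for each by edgeR. In the fit of all 8 libraries only Fbxo40 passed in any of the 5 comparisons, rising by 1.97 ± 0.45 between CKO-Sham and CKO-MI (edgeR adjusted p = 0.0224). Gm8425, which is annotated on the opposite strand inside Slc15a2, was at 0.03 CPM in CKO-Sham replicate 2 and at 0 in the other 7 libraries.

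**Figure D4:**
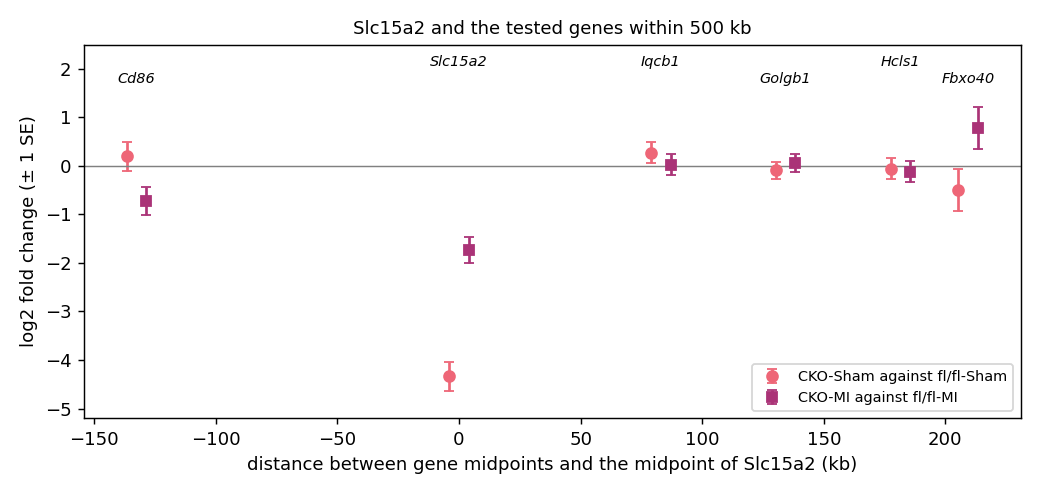
Fitted log2 fold changes (vertical axis, bars of 1 SE) of Slc15a2 and the 5 tested genes within 500 kb, by the distance of each gene's midpoint from that of Slc15a2 in kb (horizontal axis). The circles compare CKO-Sham with fl/fl-Sham and the squares CKO-MI with fl/fl-MI, and the neighbours lie between -0.72 and 0.78.

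Of 10 listed Slc15a2 transcripts, Slc15a2-201 is the one annotated as protein coding, with 22 exons and 3994 bases. The authors' FPKM of Slc15a2-201 was 7.36 and 5.52 in fl/fl-Sham, 0.380 and 0.317 in CKO-Sham, 1.75 and 1.79 in fl/fl-MI and 0.405 and 0.721 in CKO-MI. The coding transcript thus had the same order of groups as the gene, with all 4 libraries labelled CKO below the others. Its share of the summed transcript FPKM was 40.9% to 48.5% in fl/fl-Sham, 54.7% to 73.6% in CKO-Sham, 55.4% to 71.6% in fl/fl-MI and 64.2% to 75.5% in CKO-MI. Of the counts, which do not divide by length, it took 78.0% to 83.2%, 85.8% to 92.5%, 87.1% to 91.8% and 90.7% to 94.8%.

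The other 9 transcripts are short and annotated as processed transcripts or retained introns. Slc15a2-214, a processed transcript of 694 bases, was at 2.80 and 2.62 FPKM in fl/fl-Sham, 0.158 and 0.087 FPKM in CKO-Sham, 0.070 and 0.502 FPKM in fl/fl-MI, with 0.038 and 0 FPKM in CKO-MI. The low estimates rest on few reads shared among overlapping transcripts, and they are described with no test.

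**Figure D5:**
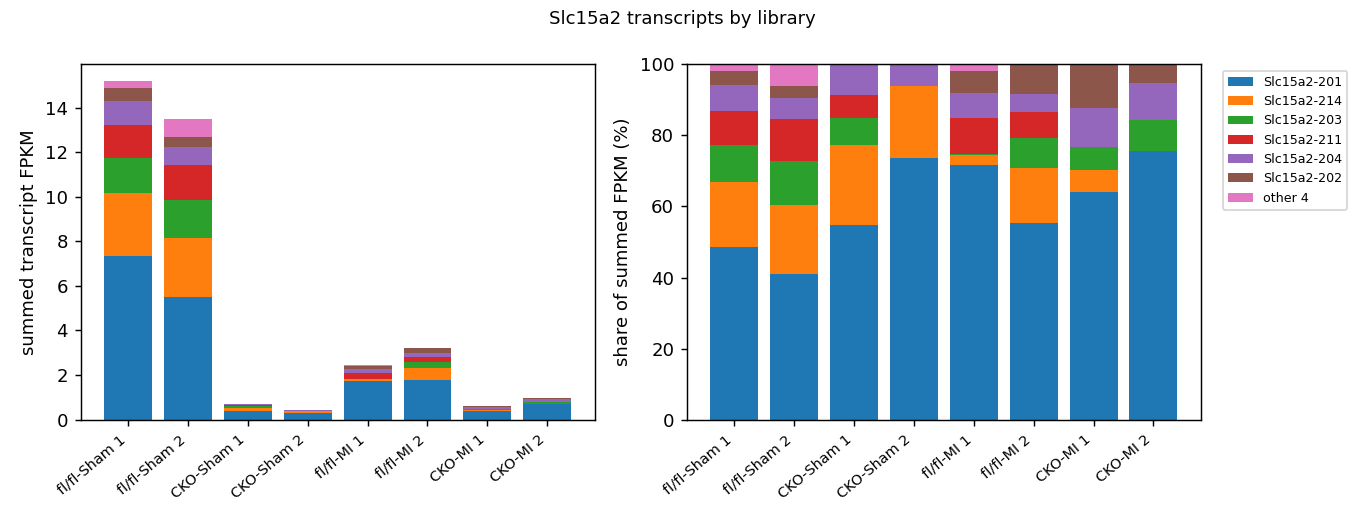
Transcripts of Slc15a2 in each of the 8 libraries, as summed authors' FPKM (left, vertical axis) and as a share of that sum in percent (right, vertical axis), with 1 colour a transcript and the 4 lowest joined as other. Slc15a2-201, the coding transcript, is the largest segment in every library, at 40.9% to 75.5% of the sum.

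The genes whose log2 CPM (with 0.1 added) was most like that of Slc15a2 over the 8 libraries were Prkra (Pearson's r = 0.97), an activator of the kinase PKR, Rida (0.93), a deaminase of reactive enamines, Ifi207 (0.93), of the interferon-inducible p200 family, Igkj1 (0.93), a joining segment of the immunoglobulin kappa locus, and Slc25a40 (0.91), a mitochondrial glutathione carrier. Prkra itself ranged over much less than Slc15a2, from 8.07 to 12.5 CPM. Igkj1 was at 0 to 0.10 CPM, below what 3 read pairs give in a library, so its r rests on a few reads. The points of each r share their group means, and the values are a description of 8 libraries.

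Slc15a3 was close in level between the groups. It was at 7.44 and 6.31 CPM in fl/fl-Sham, 5.26 and 6.74 CPM in CKO-Sham, 8.35 and 9.10 CPM in fl/fl-MI, with 5.03 and 6.50 CPM in CKO-MI. The fl/fl-MI libraries were the highest, above all 6 others, and the remaining groups overlapped each other. Group means were 6.87 ± 0.792, 6.00 ± 1.05, 8.73 ± 0.530 and 5.77 ± 1.04 CPM (SD, n = 2). The CKO-MI libraries were lower than the fl/fl-MI libraries by 1.51-fold, -0.60 ± 0.24 on the log2 scale, which did not pass edgeR's test over all genes (unadjusted p = 0.0394, adjusted p = 0.578).

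Slc15a3 passed the test in none of the other comparisons fitted by edgeR. Between CKO-Sham and fl/fl-Sham it differed by -0.20 ± 0.24 on the log2 scale (adjusted p = 1), and between CKO-MI and CKO-Sham by -0.06 ± 0.24 (adjusted p = 0.881). After MI it was higher in fl/fl hearts by 0.34 ± 0.24 without overlap (adjusted p = 0.333), where 18.5% of genes were called and 32.5% were higher and 29.5% lower without overlap. The difference between the MI effects of the genotypes was -0.40 ± 0.33 (adjusted p = 0.78), with 0% of genes called by edgeR, 1191 at an unadjusted p under 0.05 and 130 called by DESeq2. On the authors' FPKM, without a scaling for the large mitochondrial share, the fl/fl effect was 0.53 and passed limma (adjusted p = 0.0377), but there the median of all genes was 0.42. Markers of macrophages, in which this transporter is best known, were fitted lower in CKO-MI than in fl/fl-MI, as given above. Of 12, 4 rose after MI in fl/fl hearts (edgeR, adjusted over all genes), beside 10.1% of all genes. Their summed levels in sham were 563 and 628 CPM in fl/fl and 568 and 536 CPM in CKO. In CKO hearts, where Slc15a3 did not rise, 10 of 12 were fitted higher after MI, with a median of 0.35 against 0.01 for all genes. There 1 of 12 was called higher, beside 12.8% of all genes. Between the fl/fl-MI libraries the sum was lower in replicate 2 (944 against 1310 CPM), where Slc15a3 was at 9.10 against 8.35 CPM. The counting intervals of Slc15a3 in these libraries overlapped, at 162 to 217 pairs in replicate 2 and 193 to 252 pairs in replicate 1. The part of macrophages in the Slc15a3 values was not tested.

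In the transcript table Slc15a3 had 2 entries, the coding Slc15a3-201 and the retained intron form Slc15a3-203. The coding form was at 1.57 and 1.69 FPKM in fl/fl-Sham, 1.08 and 1.64 FPKM in CKO-Sham, 3.27 and 3.43 FPKM in fl/fl-MI, with 1.34 and 2.44 FPKM in CKO-MI. It made up 73.8% to 90.1% of the summed FPKM over all 8 libraries, most in fl/fl-MI at 84.2% to 90.1%. The genes most like Slc15a3 in log2 CPM were Rnps1-ps and Trnp1 (r = 0.94 each) and Tmem42, Wnt2b and Trerf1 (r = 0.93 each), and of these Trnp1 reached 3.36 and 4.76 CPM in fl/fl-MI against 1.09 and 1.47 CPM in CKO-MI.

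Slc15a4 was at its highest in 3 of the 4 MI libraries. Its level was 8.65 and 8.21 CPM in fl/fl-Sham, 7.25 and 8.60 CPM in CKO-Sham, 15.1 and 8.76 CPM in fl/fl-MI, with 15.0 and 11.7 CPM in CKO-MI. The exception was fl/fl-MI replicate 2, which lay just above the sham libraries. Group means were 8.43 ± 0.306, 7.92 ± 0.959, 11.9 ± 4.49 and 13.3 ± 2.32 CPM (SD, n = 2), so the fl/fl-MI group had the widest spread.

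The MI effect on Slc15a4 did not pass the test over all genes in either genotype by edgeR. Between CKO-MI and CKO-Sham it was 1.68-fold higher, 0.75 ± 0.29 on the log2 scale (unadjusted p = 0.0342, adjusted p = 0.0966), where edgeR called 24.7% of genes and 36.4% were higher and 35.8% lower without overlap. In fl/fl hearts it was higher by 0.50 ± 0.29 (edgeR adjusted p = 0.248). These groups did not overlap either, as was so in the higher direction for 32.5% of genes. The margin was narrow, at 8.76 CPM in fl/fl-MI replicate 2 against 8.65 CPM in fl/fl-Sham replicate 1. Without fl/fl-MI replicate 2, where the spread of the single fl/fl-MI library was taken from the other groups, edgeR gave 0.84 for the fl/fl effect and called it (adjusted p = 0.0275), and the CKO effect, 0.75, was also called with that library left out of the shared spread (adjusted p = 0.0161). The difference between the MI effects was 0.25 ± 0.40 (edgeR adjusted p = 0.899), and -0.09 without that library.

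Slc15a4 did not pass the test between genotype labels. The log2 difference was -0.09 ± 0.29 between CKO-Sham and fl/fl-Sham (edgeR adjusted p = 1) and 0.16 ± 0.28 between CKO-MI and fl/fl-MI (edgeR adjusted p = 0.913), where the groups overlapped. The latter was -0.18 without fl/fl-MI replicate 2 and -0.02 without CKO-MI replicate 1, so its direction was not stable. Summed dendritic cell markers were at 51.7 to 59.3 CPM in the sham libraries, 36.3 and 14.8 CPM in fl/fl-MI, with 26.9 and 29.0 CPM in CKO-MI. The sum is mostly Zbtb46 and Clec9a, which fell after MI in fl/fl hearts (-1.86 and -1.705 on the log2 scale, edgeR adjusted p = 0.00607 and 0.0477). The other 2 tested of the 7 markers, Itgax and Cd209a, were higher there without overlap, at 6.18 and 2.57 CPM against 1.81 and 1.12 CPM for Itgax, and were not called (edgeR adjusted p = 0.069 and 0.0631). The plasmacytoid marker Siglech was at 0 to 0.76 CPM. The part of these cells in the Slc15a4 values was not tested.

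Of 10 Slc15a4 transcripts 4 are annotated as protein coding. Of these, Slc15a4-201 (8 exons, 2732 bases) was at 1.47 and 1.69 FPKM in fl/fl-Sham, 1.57 and 2.46 FPKM in CKO-Sham, 4.50 and 1.89 FPKM in fl/fl-MI, with 5.45 and 3.99 FPKM in CKO-MI. Slc15a4-205, annotated for nonsense-mediated decay, was at 2.35 and 1.51 FPKM in fl/fl-MI but at 0 and 1.32 FPKM in CKO-MI. The share of Slc15a4-201 in the summed FPKM was 59.9% to 66.8% in fl/fl-Sham, 73.4% to 99.8% in CKO-Sham, 53.3% to 62.3% in fl/fl-MI and 70.0% to 90.5% in CKO-MI. The high ends under the CKO label came from CKO-Sham replicate 2 and CKO-MI replicate 1, where Slc15a4-205 was at 0. In the other library of each group Slc15a4-205 was at 0.549 and 1.32 FPKM. How often shares of other transcripts differ as much between such small groups was not counted. Slc15a4-201 and Slc15a4-205 have nearly the same length and ends, and how their shared reads were divided was the authors' estimate.

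The genes most like Slc15a4 in log2 CPM over the 8 libraries were Dhdds (r = 0.99), an enzyme of dolichol synthesis, Xirp2 (0.99), an actin-binding protein of the intercalated disc, Abra (0.99), an activator of actin-dependent signalling in striated muscle, Bbs5 (0.99), of the ciliary BBSome, and Tent4a (0.98), a poly(A) polymerase. Xirp2 was at 2775, 3179 and 1513 CPM in fl/fl-MI replicate 1 and the 2 CKO-MI libraries, and at 241 CPM in fl/fl-MI replicate 2, below 3 of the 4 sham libraries. Abra was at 146, 212 and 65.3 CPM in those 3 libraries, and fl/fl-MI replicate 2 lay among the sham libraries, which ran from 9.52 to 21.1 CPM. The summed macrophage markers did not set this library apart in the same way, at 944 CPM.

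Per length the 3 genes were of like level when averaged over the libraries. Mean FPKM was 1.48 for Slc15a2, 1.24 for Slc15a3 and 2.02 for Slc15a4, at percentiles 24.6, 20.1 and 32.9 of the genes tested. Slc15a2 was the highest of the 3 in fl/fl-Sham, at 4.79 and 3.84 FPKM against 1.04 and 0.947 FPKM for Slc15a3 and 1.25 and 1.27 FPKM for Slc15a4. It was the lowest of the 3 in every other library, at 0.183 to 1.11 FPKM. Slc15a1 did not reach the minimum level and was at 0 counts in 5 of 8 libraries, where a count of 0 allows up to 3 pairs (a one-sided limit), or 0.113 to 0.205 CPM. In CKO-Sham replicate 1, CKO-MI replicate 1 and CKO-MI replicate 2 it had 14, 10 and 8 counts, which is about 4, 2 and 2 read pairs.

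The transport partners of Slc15a2 were described with lists of related genes. Sodium/proton exchangers restore the proton gradient that the carrier uses, and PDZ scaffolds bind it. Over all genes tested, 10.1% rose and 8.45% fell after MI in fl/fl, and 12.8% rose and 11.9% fell in CKO. These directions are relative to TMM scaling: limma on log2(FPKM + 1), where the median of all genes was 0.42 and 0.39, called 4801 genes higher and 454 lower in fl/fl and 4630 higher and 534 lower in CKO. Of 6 tested of 8 exchangers and scaffolds, 1 rose and 1 fell in each genotype. In fl/fl 4 were fitted higher and 2 lower, and in CKO 3 higher and 3 lower. Their medians were 0.59 in fl/fl and -0.02 in CKO, against 0.05 and 0.01 for all genes tested. The one that fell was Slc9a3r2, the scaffold NHERF2, by 2.13 ± 0.28 on the log2 scale in fl/fl (edgeR adjusted p = 0.0067). In CKO it fell by 1.72 ± 0.28 (edgeR adjusted p = 0.00877). Its level was 229 to 276 CPM in sham and 36.7 to 87.1 CPM in MI libraries. Of 14 tested of 16 peptidases, which make or cleave small peptides, 1 fell after MI in fl/fl, and 3 rose and 1 fell in CKO. Ggt5, which cleaves glutathione conjugates, fell by 1.95 in fl/fl and by 1.01 in CKO (edgeR adjusted p = 0.00539 and 0.0226), and Npepps, Lap3 and Ace rose in CKO by 0.74, 0.76 and 1.84. The medians of the peptidases were 0.38 and 0.26, against 0.05 and 0.01 for all genes tested.

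Of 4 tested genes of carnosine handling, 1 fell in CKO after MI, beside 11.9% of all genes tested. Carnosine is a histidine dipeptide that PEPT2 can carry, and Carns1, its synthase, was at 62.5 and 64.3 CPM in CKO-Sham and 11.7 and 11.9 CPM in CKO-MI, a fall of 2.42 on the log2 scale (edgeR adjusted p = 0.0224). In the fl/fl groups Carns1 was at 32.8 and 40.5 CPM in sham and at 11.1 and 43.3 CPM after MI, where fl/fl-MI replicate 2 again lay with the sham libraries. Of 11 plasma membrane carriers of amino acids, 5 rose in fl/fl and 3 in CKO and 0 fell, with medians of 0.98 and 0.62 on the log2 scale. Over all genes tested 10.1% rose in fl/fl and 12.8% in CKO. Slc7a5, the large neutral amino acid carrier LAT1, rose by 1.37 and 1.35 (edgeR adjusted p = 0.0169 and 0.0148), and Slc38a2, a glutamine and alanine carrier, by 1.18 and 1.05.

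The endolysosomal setting of Slc15a3 and Slc15a4 was covered by 4 lists. Of 8 tested genes of the endosomal Toll-like receptor pathway, 2 rose and 1 fell after MI in fl/fl, and 1 rose and 1 fell in CKO. Over all genes tested 10.1% rose and 8.45% fell in fl/fl, and 12.8% rose and 11.9% fell in CKO. Irf7, the transcription factor of type I interferon induction, fell by 1.05 ± 0.15 in fl/fl (edgeR adjusted p = 0.00728) and by 1.67 ± 0.15 in CKO (edgeR adjusted p = 0.00357), while Irf5, the factor activated through SLC15A4, rose by 1.43 and 1.12 and the receptor Tlr8 by 2.42 in fl/fl. Between CKO-MI and fl/fl-MI the list's median was -0.49 on the log2 scale, against -0.01 for all genes. There 0 of 8 were called, as were 0 of all 14028 genes. Irf7 was at 32.6 and 32.0 CPM in fl/fl-MI, with 16.8 and 14.3 CPM in CKO-MI, -1.05 ± 0.15 on the log2 scale (edgeR adjusted p = 0.454).

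Of 17 tested subunits of the vacuolar proton pump, which acidifies endosomes and lysosomes, 2 rose in fl/fl, and 3 rose and 2 fell in CKO. Over all genes tested 10.1% rose and 8.45% fell in fl/fl, and 12.8% rose and 11.9% fell in CKO. Beside these shares, the counts of the 3 lists described here are not read as particular to them. Atp6ap1, an accessory subunit, rose by 0.64 and 0.71, and Atp6v1b2 and Atp6v1c1 of the soluble sector rose in CKO by 0.78 and 0.64, while Atp6v1f and Tcirg1 fell there by 0.61 and 0.78. Of 9 tested lysosomal carriers of amino acids and dipeptides, 1 fell in both genotypes, Slc38a9, the arginine sensor of the mTORC1 pathway, by 0.75 in fl/fl and by 0.82 in CKO (edgeR adjusted p = 0.0234 and 0.0147). Of 4 tested genes of NOD receptors and muropeptide transport, 1 fell in fl/fl, Nod2, a receptor of muramyl dipeptide, by 1.11 (edgeR adjusted p = 0.0349), and 0 were called in CKO.

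Between CKO-MI and fl/fl-MI edgeR called 0 genes of any of these lists, and between the sham groups 0 as well. Of all 14028 genes it called 0 and 1 there, so these counts say nothing particular to the lists. After MI in fl/fl hearts it called 18.5% of all genes, a share to set beside the list count that follows. Over all lists 15 genes were called after MI in fl/fl hearts, from which nothing particular to the lists is read. Tested were 14 peptidases, 4 genes of carnosine handling, 6 exchangers and scaffolds and 8 Toll-like receptor genes. With them were 4 NOD genes, 9 lysosomal carriers, 17 proton pump subunits and 11 plasma membrane carriers. Cndp2 stood in both the carnosine list and the peptidases. Without fl/fl-MI replicate 2 the medians in fl/fl were 0.22 for the pump subunits, 0.93 for the plasma membrane carriers and 0.39 for the peptidases. They were 0.53 for the Toll-like receptor genes, -0.14 for carnosine handling, 0.18 for exchangers and scaffolds, -0.27 for NOD genes and 0.16 for lysosomal carriers. No median of all genes is given for that setting.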

How the data were processed

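RNA sequencing counts and levels were read for 8 libraries of mouse myocardium, grouped by their deposited labels. Per the study's methods, poly(A) RNA was sequenced as paired-end reads; the submitters' processing notes name cutadapt 1.9 and FastQC. The labels describe second-strand removal, and whether counting used strand is not given in the sources used here. The authors deposited whole-number counts per gene and transcript, without normalization, in units of about 4 per read pair. They also deposited FPKM, which the authors normalized to length and library size. Gene counts equal the sum of their transcripts' counts within 1.

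Genes whose FPKM averaged 0.5 or more were fitted together over all 8 libraries with edgeR 4.0.16 (quasi-likelihood test, TMM scaling, R 4.3.3) and a mean per group, without covariates. Genes were called at an adjusted p (Benjamini-Hochberg, two-sided, 14028 genes) under 0.05. Alternatives were limma 3.58.1 on log2(FPKM + 1) and log2(FPKM + 0.1), DESeq2 1.42.0, other filters and scalings, counts divided by 4, a replicate block, only the libraries compared, and leaving out each library. The list medians without fl/fl-MI replicate 2 were chosen after seeing the data. The procedure was tested on simulated data. Transcripts, correlations and gene lists were described without tests. Of each list, members called between the infarcted groups were to be named, and up to 4 called after MI with the smallest adjusted p; other named genes were the neighbours within 500 kb and the 5 most alike by Pearson's r. The members and lists were chosen with earlier results of these data known. Promoter sequences came from RefSeq, where 2 of 3 genes matched, and no protein sequence is given. 1 gene of the lists is not reported here.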

Additional observations from a re-analysis of the deposited data

How the results depend on the processing

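The lower Slc15a2 in CKO-MI than in fl/fl-MI kept its direction under all 19 alternatives, from -1.997 to -0.65 on the log2 scale. It passed the threshold in DESeq2 (-1.72) and without fl/fl-MI replicate 1 (-1.88, its single fl/fl-MI library taking its spread from the other groups), with a range of -1.997 to -1.48 over single libraries left out. The lower Slc15a3 there kept its direction too and passed in none of the alternatives (-0.76 to -0.41 without single libraries). The described Slc15a2 values depend on the scale: with 1 or 0.1 added to FPKM the sham difference was -2.13 or -3.83 and the fl/fl MI effect -1.35 or -1.91, the difference between MI effects was 1.48 with 1 added, and the CKO MI effect was 0.43 with 0.1 added. Library totals without TMM gave -2.01 for the fl/fl and 0.60 for the CKO MI effect. Without single libraries the sham difference ran from -4.53 to -4.11, the fl/fl effect from -2.76 to -2.34, the CKO effect from -0.26 to 0.25 and the difference between effects from 2.34 to 2.85.

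The Slc15a3 difference between CKO-MI and CKO-Sham, near 0, turned positive with limma (0.26 and 0.47 with 1 and 0.1 added), with no filter (0.027), with filterByExpr (0.015), with library totals (0.51) and without CKO-Sham replicate 2 or CKO-MI replicate 1 (0.13 and 0.09, in a range from -0.25). Its fl/fl MI effect passed with limma (0.53 and 0.85) and library totals (0.90). For Slc15a4 the CKO MI effect passed with limma (0.85 and 1.24), library totals (1.29) and only the libraries compared (0.75), and ran from 0.54 to 0.92 without single libraries, passing without either fl/fl-MI library. Its fl/fl MI effect passed with log2(FPKM + 0.1) (0.96), library totals (1.09) and without fl/fl-MI replicate 2, in a range from 0.029 to 0.84. Its sham difference turned to 0.029 without CKO-Sham replicate 1 (from -0.22). Its difference between CKO-MI and fl/fl-MI ran from -0.18 to 0.62, negative without fl/fl-MI replicate 2 (-0.18) or CKO-MI replicate 1 (-0.02), and that between MI effects from -0.091 to 0.71. The causes were not tested, beyond the shift of all genes under FPKM, whose median rose by 0.39 in CKO and 0.42 in fl/fl.

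Same-numbered libraries did not deviate together (r from -0.17 to 0.06 over 6 pairs of groups), so the numbers were not taken as pairs; with a replicate block the Slc15a2 difference in MI was -1.74 (adjusted p = 0.642), and the block changed no other call of the 3 genes. It gave 1689 calls in fl/fl-MI against fl/fl-Sham in place of 2596. Genes called varied widely: leaving out single libraries gave 0 to 1674 between CKO-MI and fl/fl-MI, 25 to 5793 for CKO after MI and 119 to 4180 for fl/fl after MI, and using only the libraries compared gave 165 in sham, 199 for fl/fl after MI and no value for the difference between effects. With 2 libraries a group, 1 library can end a call.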
